A study of Mus musculus with 15 samples.

Results

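Regulatory T cells (Tregs) of mice with a Treg-restricted deletion of Rora were compared between MC903-treated and untreated skin, by RNA sequencing of sorted cells. The 6 libraries of this comparison, of 15 in all, were taken by their titles: 3 from MC903-treated skin of Foxp3 cre-eyfp Rora fl/fl mice (cKO) and 3 from untreated skin of the same genotype. The mice were adult C57BL/6 animals whose Foxp3 gene, which makes the transcription factor that defines Tregs, also yields Cre recombinase and yellow fluorescent protein (YFP), and the sort gate was CD45+CD3+CD4+YFP+. Cre is thus active in every Foxp3+ cell of the body, not in skin Tregs alone, and all 6 libraries carry the floxed Rora alleles. Wild-type (WT) Tregs of Foxp3 cre-eyfp mice, 3 libraries from MC903 skin and 3 from untreated skin, and 3 libraries of WT Tregs from skin-draining lymph nodes (LN) serve here to show where the cKO response differs. MC903 was dissolved in ethanol and put on the ears every other day for 4 applications. Treated skin was the ears alone, and untreated skin was back skin together with ears and is labelled as having had no treatment. MC903, its vehicle and the site sampled therefore cannot be told apart in any difference given below. The titles name biological replicates, but no label says whether each is a single animal or a pool, so p-values measure only the spread between these samples.

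Tregs are CD4 T cells that restrain immune responses, and those that live in skin carry a tissue programme of their own, with receptors for alarm signals, activation genes and repair factors such as amphiregulin. MC903, or calcipotriol, is an analogue of vitamin D. It raises epithelial alarm cytokines in mouse skin and is widely used to cause a type 2 inflammation like that of atopic dermatitis. Rora encodes RORα, a nuclear receptor that binds the same DNA elements as the REV-ERB repressors of the circadian clock and that is well expressed in skin Tregs.

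The deleted gene was still read in all libraries. Rora was read at 632, 492 and 473 CPM in MC903 skin, against 822, 1074 and 1199 CPM in untreated skin of cKO mice, where CPM are counts per mega-count (10 to the power 6) of the scaled library size. All 3 MC903 libraries lay below all 3 untreated ones, and Rora was lower in MC903 skin in the cKO (log2 change -0.95 ± 0.15, SE, adjusted p = 0.00123). Each adjusted p here and below is from edgeR's quasi-likelihood F test, with adjustment after Benjamini and Hochberg over every tested gene, unless another method is named. Deletion of a floxed exon need not stop transcription of the rest of the gene, and counts summed per gene cannot separate the exons. Total counts ran from 21034513 to 24492643 in cKO MC903 skin and from 24507017 to 27236288 in cKO untreated skin. The sorted cells had the transcripts of their gate: Foxp3 was read at 128, 123 and 124 CPM in MC903 skin, against 149.5, 163 and 128 CPM in untreated skin (log2 change -0.23 ± 0.24, adjusted p = 0.592), and Cd3e and Cd4 were above 285 CPM in all 6 libraries. Of genes of other lymphocytes, the natural killer cell gene Ncr1 was at 0 in all 6 and Cd8a at 0.763 CPM or less. The other CD8 chain gene, Cd8b1, was read at 17.98, 21.2 and 20.8 CPM in MC903 skin, against 20.9, 11.04 and 19.4 CPM in untreated skin.

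Of 13578 genes tested, 809 were higher in MC903 than in untreated skin of cKO mice (5.96%) and 720 were lower (5.3%), at an adjusted p under 0.05. These called genes make up 11.3% of all tested. The median absolute log2 change was 0.85 among them and 0.40 over all tested genes, whose median change was -0.01. At least doubled were 270 and at least halved were 296, while changes of 4-fold or more numbered 98 upward and 51 downward. In the 6 cKO libraries the first principal component, with 35.0% of the variance, placed the 3 MC903 libraries on one side and the 3 untreated ones on the other. Libraries of the groups did not overlap for 33.4% of all tested genes, and for 802 of the 809 higher and 705 of the 720 lower calls.

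The number of calls moves with single libraries. Without untreated replicate 1 it was 1054 higher and 841 lower, without untreated replicate 2 it was 351 and 311, and without untreated replicate 3 it was 343 and 319. Leaving out MC903 replicate 1 gave 502 higher and 478 lower, MC903 replicate 2 gave 369 and 276, and MC903 replicate 3 gave 439 and 363. A set of 256 higher and 216 lower genes was called under each library left out in turn and under each of the other planned settings (another test, scaling, filter, set of libraries in the fit or replicate block). Such genes are called stable below, and a gene named without remark as higher, lower, risen or fallen is one of them.

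**Figure D1:**
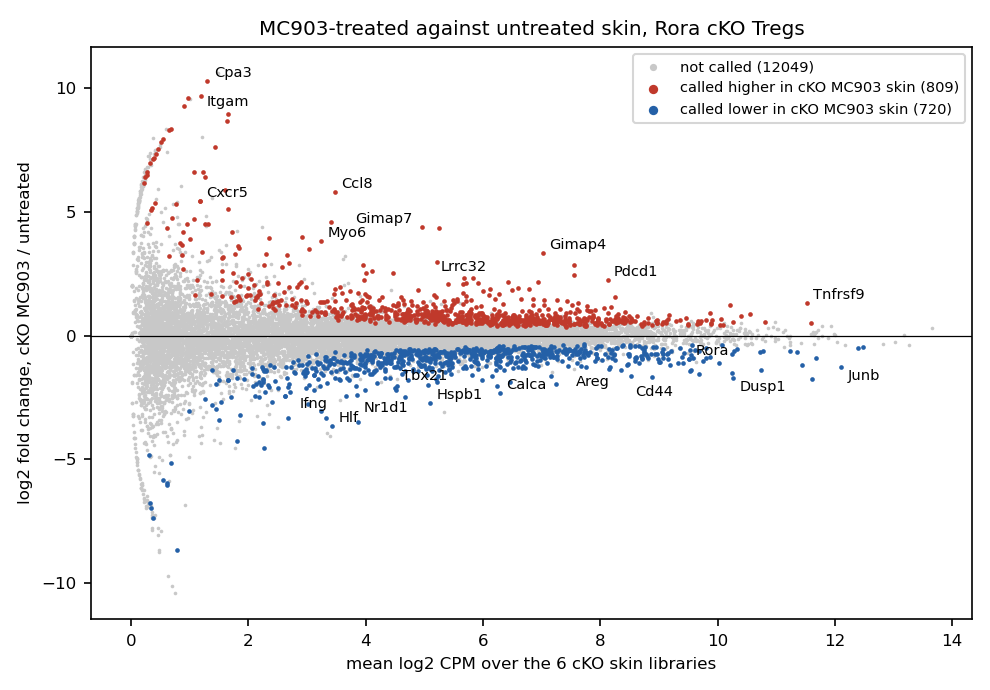
Log2 change in MC903 against untreated skin of cKO Tregs (y axis) over mean log2 CPM of the 6 cKO libraries (x axis), 1 point per tested gene, with the 809 higher and 720 lower calls coloured and selected genes named. Right of a mean log2 CPM of 3, Gimap7 and Ccl8 lie near the top and Hlf near the bottom, and points at the far left are genes with few counts, whose fitted changes depend on the prior count.

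Among the lower genes, those of the immediate early response stood out by their number. Immediate early genes are transcribed within minutes of a receptor signal or of stress, and encode AP-1, EGR and NR4A transcription factors and the proteins that shut such signals off. Of 25 tested, 16 fell and 13 of these calls were stable, none rose, and the median log2 change was -1.10, against -0.01 over all tested genes. Dusp1, a phosphatase that inactivates MAP kinases, was read at 779, 634 and 641 CPM in MC903 skin, against 1785, 2330.5 and 2595 CPM in untreated skin (log2 change -1.71 ± 0.19, SE, adjusted p = 7.69e-05). Atf3, a stress-induced transcription factor, stood at 108, 51.4 and 75.1 CPM in MC903 skin, against 302, 284 and 313 CPM in untreated skin (log2 change -1.94 ± 0.25, SE, adjusted p = 0.00024). For both genes every MC903 library lay below every untreated one, and the highest MC903 library was replicate 1.

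Nr4a1, an orphan nuclear receptor whose transcription follows T cell receptor (TCR) signal strength, was read at 573, 428 and 447 CPM in MC903 skin, against 1009.7, 1661 and 1619.9 CPM in untreated skin (log2 change -1.57 ± 0.22, SE, adjusted p = 0.000444). Egr2, a zinc finger factor also induced through the TCR, was read at 17.98, 9.502 and 17.98 CPM in MC903 skin, against 40.6, 43.8 and 38.7 CPM in untreated skin (log2 change -1.44 ± 0.20, SE, adjusted p = 0.000546). The groups did not overlap for either gene. Of the AP-1 subunit genes, which are named here after their values were seen, Junb was read at 3158, 2754 and 2644 CPM in MC903 skin, against 5780.1, 7382 and 7500.5 CPM in untreated skin (log2 change -1.27 ± 0.20, SE, adjusted p = 0.00118) and Fos at 653, 358 and 375 CPM in MC903 skin, against 1033, 1220.3 and 1444 CPM in untreated skin (log2 change -1.42 ± 0.27, SE, adjusted p = 0.00403), again without overlap. The count of 16 moved between 13 and 18 over all settings tried. In LN Tregs 24 of the 25 genes were lower than in WT untreated skin, against 28.8% of all tested genes, in a comparison that shares no library with the cKO one. Skin of both treatments was digested for 90 min with Liberase TL and DNAse, while no digestion time is given here for LN. Tissue and its preparation therefore cannot be told apart between LN and skin, and a part of the digestion in these levels was not tested.

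The promoters of 4 genes that fell are given here because they show where motifs known to bind factors of signalling and of the clock lie relative to the start of transcription. They are the 250 bases before the start in RefSeq's annotation of GRCm38.p6, read 5′ to 3′ on the gene's strand, with capitals for the cyclic AMP response element TGACGTCA and the E-box CACGTG, each of which is its own reverse complement so that both strands are covered. Hlf lies at chr11:90390918-90391167 on the minus strand, Dusp1 at chr17:26508473-26508722 on the minus strand, Areg at chr5:91139349-91139598 on the plus strand and Ciart at chr3:95882229-95882478 on the minus strand.
Hlf: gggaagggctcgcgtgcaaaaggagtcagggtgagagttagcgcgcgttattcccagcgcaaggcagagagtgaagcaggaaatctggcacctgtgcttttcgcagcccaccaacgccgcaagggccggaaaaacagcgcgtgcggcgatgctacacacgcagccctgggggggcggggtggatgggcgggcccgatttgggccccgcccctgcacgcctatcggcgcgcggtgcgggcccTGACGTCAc
Dusp1: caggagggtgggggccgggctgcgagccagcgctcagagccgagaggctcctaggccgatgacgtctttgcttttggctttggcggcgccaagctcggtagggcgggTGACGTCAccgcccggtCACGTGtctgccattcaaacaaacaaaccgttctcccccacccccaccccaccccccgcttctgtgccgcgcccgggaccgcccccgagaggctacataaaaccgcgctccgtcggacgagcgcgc
Areg: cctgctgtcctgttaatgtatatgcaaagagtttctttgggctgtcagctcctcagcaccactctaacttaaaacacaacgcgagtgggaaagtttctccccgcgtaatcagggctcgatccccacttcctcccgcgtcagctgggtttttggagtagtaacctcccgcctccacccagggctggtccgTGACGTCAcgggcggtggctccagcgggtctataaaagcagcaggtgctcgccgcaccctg
Ciart: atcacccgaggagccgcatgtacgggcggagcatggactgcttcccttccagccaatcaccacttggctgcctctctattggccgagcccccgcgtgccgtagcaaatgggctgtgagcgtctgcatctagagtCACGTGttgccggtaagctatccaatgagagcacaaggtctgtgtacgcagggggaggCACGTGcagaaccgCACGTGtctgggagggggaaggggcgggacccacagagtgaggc
In Hlf the response element ends 2 bases before the start, in Areg it ends 54 bases before it and in Dusp1 136 bases before it, with an E-box that ends 121 bases before the start. Ciart holds 3 E-boxes, which end 111, 53 and 39 bases before its start. These matches are descriptions of letters, not binding sites.

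The 2 motifs were counted over all promoters of this length. TGACGTCA was found in 22 of 554 lower genes with an entry (3.97%) and in 13 of 620 higher genes (2.1%), against 3% of the tested genes and 1.77% of the 27025 symbols in the table. It was found in 4 of 21 immediate early genes, namely Btg2, Dusp1, Maff and Ppp1r15a. Among the 14 of them called lower it was found in 2, Dusp1 and Ppp1r15a. CACGTG was found in 70 of 554 lower genes (12.6%) and in 49 of 620 higher genes (7.9%), against 9.56% of tested genes and 6.86% of all symbols. Of 16 clock genes with an entry 5 hold it (31.2%), and of 21 immediate early genes 6 hold it (28.6%). The coordinates are those of the reference and were not matched to the older build of the alignments.

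Clock genes were also lower. The circadian clock runs on a feedback loop in which E-box activators drive their own repressors, the PER, CRY and REV-ERB proteins, and a set of output factors with PAR-type leucine zippers. Of 20 tested, 10 fell and none rose, with a median log2 change of -0.83, and 4 calls were stable (Nr1d1, Hlf, Nr1d2 and Ciart). The count was 4 without untreated replicate 2, 5 without untreated replicate 3 and 6 without MC903 replicate 2 or 3. Nr1d1, which encodes REV-ERBα, was read at 4.88, 5.62 and 7.53 CPM in MC903 skin, against 23.6, 50.4 and 20.6 CPM in untreated skin (log2 change -2.39 ± 0.31, SE, adjusted p = 0.000276). Hlf, a PAR-type output factor, was read at 3.89, 0.9696 and 3.195 CPM in MC903 skin, against 41.2, 36.2 and 23.5 CPM in untreated skin (log2 change -3.64 ± 0.47, SE, adjusted p = 0.000339). Hlf was lowest in MC903 replicate 2, untreated replicate 2 stood highest for Nr1d1, and neither gene's groups overlapped. Nr1d2, the paralogue that encodes REV-ERBβ, had a log2 change of -1.37 ± 0.20, and Ciart, a repressor of the clock's activators, stood at 13.3, 11.6 and 10.4 CPM in MC903 skin, against 22.2, 26.4 and 30.2 CPM in untreated skin (log2 change -1.16 ± 0.20, SE, adjusted p = 0.00228). Times of collection were not used here, and whether they differed between groups was not tested.

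Genes of the stress response of proteins fell with them. Heat shock chaperones, which hold and refold other proteins, had 9 of 21 tested members called lower (5 without MC903 replicate 2), of which 5 were stable, and 1 higher, Chordc1, which was not stable. Hspb1, a small heat shock protein, was read at 14.2, 8.82 and 15.7 CPM in MC903 skin, against 93.5, 81.6 and 80.97 CPM in untreated skin (log2 change -2.73 ± 0.27, SE, adjusted p = 2.83e-05). The cytosolic chaperone gene Hsp90ab1 stood at 2094, 1917 and 1846 CPM in MC903 skin, against 2764, 3164 and 2987 CPM in untreated skin (log2 change -0.61 ± 0.10, SE, adjusted p = 0.00154), and the mitochondrial one Hspa9 and the co-chaperone gene Dnajb4 had log2 changes of -0.65 ± 0.12 and -0.83 ± 0.16. Every MC903 library was below every untreated one for these 4 genes. Of 23 genes of the unfolded protein and integrated stress response, 5 fell and none rose. That count was 2 without MC903 replicate 2 or 3 or untreated replicate 2 or 3 and 3 without MC903 replicate 1. Its stable members were Dnajb9, a chaperone of the endoplasmic reticulum (-0.86 ± 0.13), and Atf4, the effector transcription factor of the integrated stress response (-0.71 ± 0.15).

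TCR activation genes had 9 of 21 tested members lower, 5 of them stable, and 2 higher. The lower count was 5 without MC903 replicate 2 or untreated replicate 2, and the higher count was 1 without MC903 replicate 1, 2 or 3 or untreated replicate 2 or 3. Cd44, an adhesion receptor for hyaluronan that marks activated T cells, was read at 372, 196 and 240.4 CPM in MC903 skin, against 792, 811 and 953 CPM in untreated skin (log2 change -1.66 ± 0.19, SE, adjusted p = 7.69e-05). Irf4, a transcription factor graded by TCR signal, stood at 80.5, 52.2 and 60.6 CPM in MC903 skin, against 163, 149 and 163 CPM in untreated skin (log2 change -1.30 ± 0.25, SE, adjusted p = 0.00465). MC903 replicate 1 was the highest of its group for both genes and still lay below each untreated library. The stable member that rose was Tnfrsf9, which encodes the costimulatory receptor 4-1BB, at 5201, 4269.7 and 4601 CPM in MC903 skin, against 2331, 1511 and 1833 CPM in untreated skin (log2 change 1.31 ± 0.17, SE, adjusted p = 0.00024), so the list did not move one way. Of the negative feedback genes of MAP kinase signalling, 4 of 14 fell and none rose (2 without MC903 replicate 2 or 3 or untreated replicate 2). Dusp6, a phosphatase specific for ERK kinases, was read at 15.3, 19.9 and 13.8 CPM in MC903 skin, against 49.2, 76.6 and 67.8 CPM in untreated skin (log2 change -1.98 ± 0.22, SE, adjusted p = 7.46e-05).

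Of 24 NF-κB target genes 7 fell and none rose. The count was 3 without untreated replicate 2 or 3 and 4 without MC903 replicate 2, and 3 calls were stable. Gadd45b, a stress sensor upstream of p38 and JNK kinases, stood at 939.6, 908 and 988 CPM in MC903 skin, against 1643, 1356 and 1708 CPM in untreated skin (log2 change -0.73 ± 0.13, SE, adjusted p = 0.00234). Nfkbid and Nfkbiz, which encode nuclear regulators of the IκB family, had log2 changes of -0.88 ± 0.18 and -0.73 ± 0.15. Tnf, the gene of the cytokine that itself induces this pathway, was read at 17.1, 5.24 and 10.2 CPM in MC903 skin, against 36.4, 47.9 and 55.4 CPM in untreated skin (log2 change -2.10 ± 0.36, SE, adjusted p = 0.00228), and Tnfrsf1a, which encodes a receptor for it, at 18.9, 18.8 and 23.3 CPM in MC903 skin, against 48.1, 55.4 and 38.3 CPM in untreated skin (log2 change -1.22 ± 0.20, SE, adjusted p = 0.00171). In all 5 genes the groups did not overlap.

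**Figure D2:**
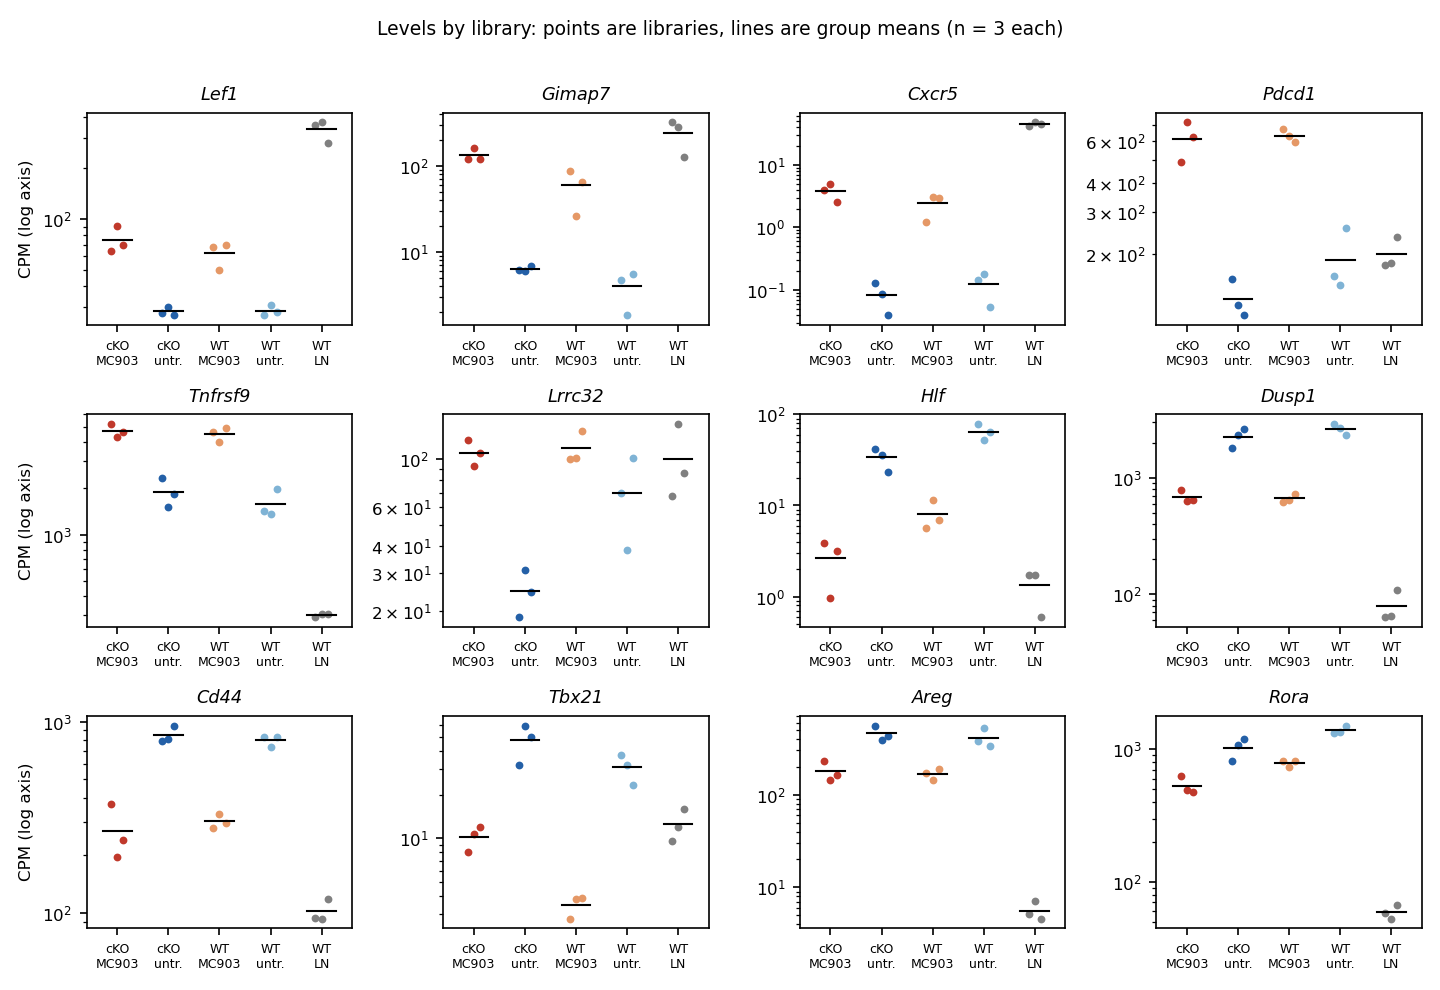
CPM on a log axis of 12 genes, 1 panel each, in all 15 libraries: cKO MC903, cKO untreated, WT MC903 and WT untreated skin and WT LN, with 1 point per library and a line at the mean of each group of 3. The cKO MC903 and cKO untreated points do not overlap in any panel.

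Tubulin genes, a family picked out after the values were seen, fell as well. Tubulins are the subunits of microtubules. Of 15 tested members 6 fell and none rose, 5 of the 6 calls were stable, and the same counts of 6 and 0 were found in WT Tregs. Tuba1a was read at 176, 112 and 129 CPM in MC903 skin, against 345, 336 and 329.8 CPM in untreated skin (log2 change -1.28 ± 0.16, SE, adjusted p = 0.00024), Tubb2a had a log2 change of -1.73 ± 0.24 and Tubb4b one of -0.91 ± 0.13. Tppp, whose product promotes tubulin assembly and which the rule for large changes names, was read at 5.14, 2.42 and 4.29 CPM in MC903 skin, against 35.4, 37.9 and 58.4 CPM in untreated skin (log2 change -3.47 ± 0.50, SE, adjusted p = 0.000818). Reads shared by tubulin genes of similar sequence may be split in a way that is not given in the sources used here.

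The other genes with the largest falls belong to no single family. Rgs11, a regulator of G protein signalling, was read at 2.42, 4.27 and 1.57 CPM in MC903 skin, against 20.4, 24.4 and 38.9 CPM in untreated skin (log2 change -3.34 ± 0.36, SE, adjusted p = 6.12e-05). Ptafr, the receptor of platelet-activating factor, stood at 5.83, 0.776 and 2.38 CPM in MC903 skin, against 22.7, 22.4 and 30.3 CPM in untreated skin (log2 change -3.06 ± 0.57, SE, adjusted p = 0.00363), and Mmp9, a gelatinase, at 16.1, 4.99 and 11.5 CPM in MC903 skin, against 42.8, 86.2 and 53.8 CPM in untreated skin (log2 change -2.48 ± 0.39, SE, adjusted p = 0.00137). None of the 3 had an MC903 library above an untreated one, and MC903 replicate 2 was lowest for Ptafr and Mmp9. Calca, which encodes the precursor of calcitonin and of the neuropeptide CGRP, was read at 38.1, 33.5 and 31.1 CPM in MC903 skin, against 173, 159 and 183 CPM in untreated skin (log2 change -2.33 ± 0.26, SE, adjusted p = 7.62e-05). Klf9, a zinc finger factor induced by glucocorticoids, had a log2 change of -2.19 ± 0.42, and Edaradd, an adaptor of the ectodysplasin receptor, one of -2.18 ± 0.34. Sfn, which encodes the protein 14-3-3 sigma and stands on the list of keratinocyte markers, was read at 36.3, 32.3 and 42.3 CPM in MC903 skin, against 130.2, 172 and 154 CPM in untreated skin (log2 change -2.04 ± 0.17, SE, adjusted p = 8.98e-06).

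On the higher side the GIMAP family moved as a whole. GIMAP proteins are GTPases of lymphocytes, encoded in 1 gene cluster and known for their part in T cell survival. All 8 tested members rose, each call was stable, and the median log2 change was 2.64. Gimap7 was read at 119, 159.9 and 119 CPM in MC903 skin, against 6.098, 6.04 and 6.76 CPM in untreated skin (log2 change 4.39 ± 0.50, SE, adjusted p = 0.000265), and Gimap4 at 381, 489.6 and 362 CPM in MC903 skin, against 44.7, 40.4 and 37.4 CPM in untreated skin (log2 change 3.33 ± 0.33, SE, adjusted p = 6.36e-05). The groups were far apart, with no untreated library above 44.7 CPM for Gimap4 or above 6.76 CPM for Gimap7. Gimap5 and Gimap6 had log2 changes of 2.98 ± 0.32 and 2.84 ± 0.37, and the other members, Gimap1, Gimap3, Gimap8 and Gimap9, had changes between 2.07 and 2.45. All 8 were also higher in LN Tregs than in WT untreated skin, with Gimap4 at 1506, 1535 and 916 CPM in LN. The family was followed as such after its values were seen, and reads shared between its members may be split in an unknown way.

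Genes of lymphoid and resting T cells rose in part. Of 20 tested, 8 were higher and 1 was lower (Foxo1, not stable), with a median log2 change of 0.77. The higher count was 4 without MC903 replicate 2 or untreated replicate 3 and 5 without MC903 replicate 3, and 4 without MC903 replicate 2 and untreated replicate 1 together. Lef1, a transcription factor of naive and stem-like T cells, was read at 64.4, 90.997 and 70.5 CPM in MC903 skin, against 27.9, 30.05 and 27.2 CPM in untreated skin (log2 change 1.41 ± 0.16, SE, adjusted p = 9.47e-05), and Klf3, a factor of resting lymphocytes, at 70.02, 83.3 and 76.97 CPM in MC903 skin, against 32.1, 41.4 and 40.6 CPM in untreated skin (log2 change 1.01 ± 0.16, SE, adjusted p = 0.00137). For both genes every MC903 library lay above every untreated one, and Lef1 stood at 361, 373 and 282 CPM in LN Tregs. Tcf7 and S1pr1 were also called higher (1.16 ± 0.34 and 1.11 ± 0.28), but neither call was stable.

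The direction of the whole response was set beside the difference between LN and skin. Of the 809 genes higher in MC903 skin, 469 (58.0%) were higher in WT LN Tregs than in WT untreated skin Tregs and 113 (13.97%) were lower. Of the 720 lower genes, 510 (70.8%) were lower in LN and 65 (9.03%) were higher. Over all tested genes 28.8% were called each way. Skin was digested for 90 min and no such time is given here for LN, so tissue and its preparation cannot be told apart in these shares. The list of genes of tissue Tregs, which live outside lymphoid organs, gave 8 lower and 2 higher of 26 tested, with counts of 5 without MC903 replicate 1 or untreated replicate 2 for the lower calls and of 1 without untreated replicate 2 for the higher ones. In these bulk samples fewer cells of a type and less RNA per cell cannot be told apart.

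**Figure D3:**
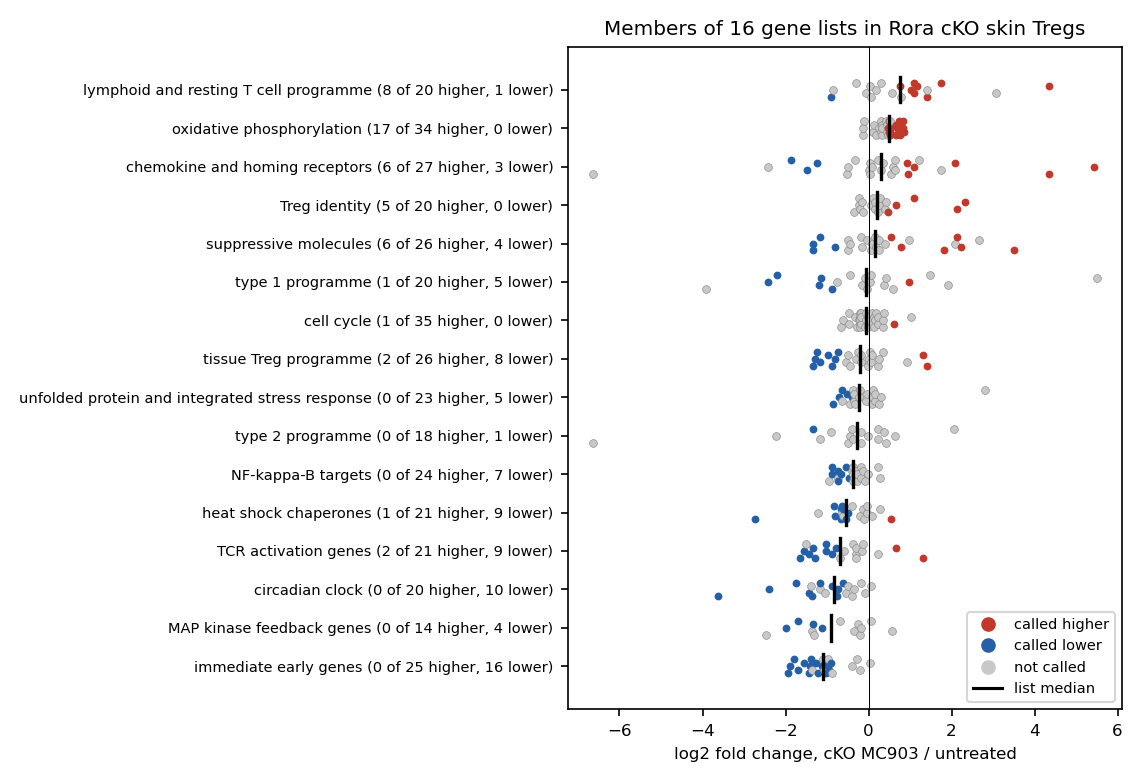
Log2 change in MC903 against untreated skin of cKO Tregs (x axis) for the tested members of 16 gene lists (rows), 1 point per gene coloured by call, with a black bar at each list's median and counts of calls in the row names. The immediate early list has the lowest median (-1.10) and the lymphoid list the highest of those drawn (0.77).

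Of 17 tested genes of follicular regulatory T cells, which enter B cell follicles, 4 rose and none fell. Cxcr5, the follicle homing receptor, was read at 4.02, 4.85 and 2.53 CPM in MC903 skin, against 0.127, 0.0862 and 0.0391 CPM in untreated skin (log2 change 5.43 ± 0.50, SE, adjusted p = 1.44e-05), still below the 41.97, 47.8 and 44.5 CPM of LN Tregs. Pdcd1, which encodes the inhibitory receptor PD-1, stood at 491, 719 and 626 CPM in MC903 skin, against 156, 122 and 110.1 CPM in untreated skin (log2 change 2.24 ± 0.21, SE, adjusted p = 1.64e-05). Sh2d1a, the adaptor SAP, through which SLAM family receptors signal, was read at 103, 122 and 111 CPM in MC903 skin, against 25.3, 23.4 and 18.1 CPM in untreated skin (log2 change 2.33 ± 0.22, SE, adjusted p = 1.64e-05), and Slamf6, one such receptor that stands on the checkpoint list instead, at 253, 276 and 223 CPM in MC903 skin, against 97.8, 86.9 and 93.3 CPM in untreated skin (log2 change 1.44 ± 0.15, SE, adjusted p = 5.59e-05). These 4 genes rose without overlap between groups. The fourth called member of the list was Il1r2, the decoy receptor of interleukin 1 (log2 change 0.79 ± 0.20, SE, adjusted p = 0.0181), whose call ended without each library but untreated replicate 1. Beside these genes and those of the lymphoid list, B cell markers summed to 25.2, 13.9 and 23.99 CPM in MC903 skin, against 12.03, 8.32 and 12.7 CPM in untreated skin, without overlap, and to between 203 and 748 CPM in LN. None of the 10 tested B cell markers was called in the cKO, and their part in these results was not tested.

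Of 20 tested genes that define Tregs 5 rose and none fell, a count that was 3 without MC903 replicate 2 or 3 or untreated replicate 2 or 3. Folr4, a folate receptor family protein of Tregs, was read at 103, 145 and 132 CPM in MC903 skin, against 28.5, 27.3 and 19.6 CPM in untreated skin (log2 change 2.33 ± 0.27, SE, adjusted p = 0.000141). Lrrc32, which encodes GARP, the docking receptor of latent TGF-β on Tregs, stood at 123, 92.7 and 107 CPM in MC903 skin, against 18.7, 30.8 and 24.3 CPM in untreated skin (log2 change 2.13 ± 0.34, SE, adjusted p = 0.00165), and Nrp1, a semaphorin receptor of thymus-derived Tregs, at 129, 101 and 87.2 CPM in MC903 skin, against 48.5, 49.9 and 51.2 CPM in untreated skin (log2 change 1.09 ± 0.16, SE, adjusted p = 0.000952). MC903 and untreated libraries were apart in all 3. Il2ra, the high-affinity chain of the interleukin 2 receptor, was called higher (log2 change 0.66 ± 0.20, SE, adjusted p = 0.0429), but the call ended without each library other than untreated replicate 1, with adjusted p up to 0.148. Ctla4, an inhibitory receptor, was not called (0.16 ± 0.14).

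Suppressive molecules moved both ways, with 6 of 26 tested higher and 4 lower. The higher count was 3 without MC903 replicate 2 or 3 or untreated replicate 3, and the lower count was 2 without MC903 replicate 1 or untreated replicate 2. Il10, the gene of an anti-inflammatory cytokine, was read at 319, 312 and 308 CPM in MC903 skin, against 559, 533 and 549 CPM in untreated skin (log2 change -0.81 ± 0.15, SE, adjusted p = 0.00388). Areg, the gene of the repair factor amphiregulin, stood at 233, 144 and 165 CPM in MC903 skin, against 557, 391 and 425 CPM in untreated skin (log2 change -1.34 ± 0.21, SE, adjusted p = 0.00137). Both were lower in every MC903 library. Nt5e, which encodes the adenosine-forming enzyme CD73, was read at 119.9, 122 and 112 CPM in MC903 skin, against 33.6, 29.1 and 37.7 CPM in untreated skin (log2 change 1.82 ± 0.31, SE, adjusted p = 0.00269), with every MC903 library above the untreated ones. Gzma, a granzyme gene, was also called higher (3.51 ± 0.95), but the call ended without MC903 replicate 2 (adjusted p = 0.0602), MC903 replicate 3 (0.0816), untreated replicate 2 (0.122) or untreated replicate 3 (0.111).

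Type 1 genes had 5 of 20 tested members lower and 1 higher, Stat4, whose call ended without MC903 replicate 2 (adjusted p = 0.0511). The lower count was 2 without MC903 replicate 1 or 2 or untreated replicate 2 and 3 without untreated replicate 1. Tbx21, which encodes the type 1 master regulator T-bet, was read at 7.996, 10.7 and 11.97 CPM in MC903 skin, against 31.8, 59.6 and 49.9 CPM in untreated skin (log2 change -2.20 ± 0.28, SE, adjusted p = 0.000215). Ifng, the gene of interferon-γ, stood at 8.08, 3.1997 and 3.77 CPM in MC903 skin, against 25.9998, 27.2 and 28.005 CPM in untreated skin (log2 change -2.43 ± 0.47, SE, adjusted p = 0.00447). For both genes the lowest untreated library was well above the highest MC903 library. Cxcl10, an interferon-induced chemokine gene, was read at 33.5, 22.5 and 29.2 CPM in MC903 skin, against 83.3, 65.1 and 55.8 CPM in untreated skin (log2 change -1.26 ± 0.24, SE, adjusted p = 0.00432), and its call ended without MC903 replicate 2 and untreated replicate 1 together (adjusted p = 0.0568). Of 30 interferon-stimulated genes 3 rose and none fell (1 without MC903 replicate 1 or 3 or untreated replicate 1 or 3), with Ifi27l2a the stable one (log2 change 1.58 ± 0.25, SE, adjusted p = 0.00154). The called share of the interferon list was 10%, close to the 11.3% of all tested genes.

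Of 18 type 2 genes 1 was called, the fall of Areg. Gata3, the type 2 master regulator, was read at 1033, 918 and 927 CPM in MC903 skin, against 983, 1101 and 1158 CPM in untreated skin (log2 change -0.17 ± 0.13, adjusted p = 0.43). Il1rl1, which encodes the receptor of interleukin 33, stood at 1067, 862 and 918 CPM in MC903 skin, against 819.8, 767 and 863 CPM in untreated skin (0.22 ± 0.15, adjusted p = 0.374). The groups overlapped for both. The cytokine gene Il4 was read at 5.01, 3.98 and 4.34 CPM in MC903 skin, against 5.08, 4.01 and 4.34 CPM in untreated skin (-0.01 ± 0.42, adjusted p = 0.994), Il5 at 3.72, 0.9696 and 1.43 CPM in MC903 skin, against 1.91, 6.12 and 0 CPM in untreated skin (-0.39 ± 1.43, adjusted p = 0.899), and Il13 at 0.951, 0.9696 and 1.001 CPM in MC903 skin, against 4.32, 5.001 and 4.45 CPM in untreated skin (-2.23 ± 0.75, adjusted p = 0.0667). The MC903 libraries of Il13 all lay below the untreated ones, and those of Il4 and Il5 overlapped with them. A p that misses the threshold does not show equal levels, and Il13 was called lower by DESeq2 (adjusted p = 0.0162), by limma-voom (0.00453) and with only the compared groups in the fit (0.0122). Of 18 type 17 genes 2 fell and 1 rose, Ccl20, whose call was not stable. Ahr, the aryl hydrocarbon receptor, fell (log2 change -0.99 ± 0.21, SE, adjusted p = 0.00773).

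Among 37 genes of the TNF receptor superfamily and its ligands, 5 rose and 8 fell, with 3 rises without untreated replicate 2, and 5 falls without MC903 replicate 2 and 4 without MC903 replicate 3. Tnfrsf26, a mouse receptor of this family, was read at 55.8, 61.3 and 68.8 CPM in MC903 skin, against 23.2, 20.7 and 15.7 CPM in untreated skin (log2 change 1.64 ± 0.30, SE, adjusted p = 0.00307). Tnfsf11, which encodes RANKL and is named after its values were seen, stood at 25.8, 17.5 and 16.1 CPM in MC903 skin, against 53.9, 51.3 and 34.996 CPM in untreated skin (log2 change -1.24 ± 0.23, SE, adjusted p = 0.00336). Tnfrsf25, which encodes death receptor 3, was not called, at 41.8, 51.4 and 40.01 CPM in MC903 skin, against 31.3, 39.1 and 31.1 CPM in untreated skin (0.39 ± 0.16, adjusted p = 0.126). Of 26 checkpoint and costimulatory receptor genes, 2 rose (Pdcd1 and Slamf6) and 3 fell, a count that was 1 without MC903 replicate 1, 2 or 3 or untreated replicate 2. Cd28, the main costimulatory receptor of T cells, was the stable fall (log2 change -0.69 ± 0.14, SE, adjusted p = 0.00695).

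Homing receptors gave 6 higher and 3 lower of 27 tested, and no single library moved either count by more than 1.5 times. Gpr15, a receptor that brings T cells to large intestine and skin, was read at 115, 114 and 80.3 CPM in MC903 skin, against 24.6, 19.1 and 28.9 CPM in untreated skin (log2 change 2.09 ± 0.26, SE, adjusted p = 0.000235). Cxcr6, a chemokine receptor of tissue-resident T cells, stood at 97.4, 149.9 and 156 CPM in MC903 skin, against 360.0, 338 and 251 CPM in untreated skin (log2 change -1.24 ± 0.21, SE, adjusted p = 0.00209). Every MC903 library was above the untreated ones for Gpr15 and below them for Cxcr6. Selplg, the selectin ligand PSGL-1, was higher (log2 change 0.93 ± 0.17, SE, adjusted p = 0.00269), and is named after its values were seen. Ccr8, a chemokine receptor of skin Tregs, was not called (-0.50 ± 0.23, adjusted p = 0.177), but was called lower by limma-voom (adjusted p = 0.0315), with only the compared groups in the fit (0.0252) and with the 12 skin libraries alone (0.0169).

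Of 16 integrin genes 4 rose and 2 fell. Itgb1, the β1 chain shared by receptors for matrix and vascular ligands, was read at 503, 423 and 382 CPM in MC903 skin, against 180.0, 219.7 and 188 CPM in untreated skin (log2 change 1.15 ± 0.18, SE, adjusted p = 0.00101), and Itgb3, the β3 chain, at 57.9, 66.1 and 59.2 CPM in MC903 skin, against 21.5, 22.1 and 18.4 CPM in untreated skin (log2 change 1.56 ± 0.17, SE, adjusted p = 6.64e-05). Itgam, the αM chain also known as a myeloid marker, stood at 3.98, 4.22 and 4.34 CPM in MC903 skin. It was at 0 in all untreated cKO libraries (adjusted p = 0.00313). Its mean in MC903 skin was 33.6-fold a floor of 3 counts per untreated library. All 3 genes were apart between groups, and Itgam was even across the MC903 libraries. The falls were Itgae, which encodes CD103, and Itgb8, which encodes the β8 chain that activates TGF-β, and this count was 0 without MC903 replicate 1, 2 or 3 or untreated replicate 2 or 3.

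The genes with the largest rises outside these lists were of mixed kinds. Myo6, the motor protein myosin VI, was read at 27.2, 31.2 and 27.2 CPM in MC903 skin, against 2.16, 1.68 and 2.23 CPM in untreated skin (log2 change 3.81 ± 0.28, SE, adjusted p = 4.86e-06), and Scin, the actin-severing protein scinderin, at 30.7, 44.7 and 38.2 CPM in MC903 skin, against 6.14, 5.22 and 4.41 CPM in untreated skin (log2 change 2.85 ± 0.30, SE, adjusted p = 5.22e-05). Dpp4, the cell-surface peptidase CD26, stood at 35.4, 44.02 and 31.4 CPM in MC903 skin, against 8.47, 7.501 and 3.05 CPM in untreated skin (log2 change 2.54 ± 0.31, SE, adjusted p = 0.000189). For these 3 genes the untreated libraries held 8.47 CPM or less and the MC903 libraries 27.2 CPM or more. Cnih2, a cornichon protein that escorts glutamate receptors, was read at 22.4, 46.2 and 53.5 CPM in MC903 skin, against 6.39, 6.08 and 7.34 CPM in untreated skin (log2 change 2.62 ± 0.42, SE, adjusted p = 0.00137), with MC903 replicate 1 the lowest of its group. Of 6 tested genes of the interferon-induced transmembrane family, picked out after their values were seen, 2 rose: Ifitm1 at 14.998, 22.98 and 31.3 CPM in MC903 skin, against 1.27, 1.42 and 1.601 CPM in untreated skin (log2 change 4.01 ± 0.55, SE, adjusted p = 0.000432), and Ifitm2 (2.19 ± 0.29). The chemokine genes Ccl8 and Ccl7, which bring monocytes and other leukocytes to tissue, were called higher with wide errors (log2 changes of 5.79 ± 1.31 and 4.597 ± 1.24). Ccl8 was read at 36.7, 109.6 and 48.8 CPM in MC903 skin, against 2.07, 0.862 and 0.586 CPM in untreated skin, and its call ended without MC903 replicate 2 (adjusted p = 0.054), untreated replicate 2 (0.073) or untreated replicate 3 (0.0798), and that of Ccl7 without MC903 replicate 2 (0.123), MC903 replicate 3 (0.059), untreated replicate 2 (0.122) or untreated replicate 3 (0.102). Both calls also ended without MC903 replicate 2 and untreated replicate 1 together (0.0553 for Ccl8 and 0.0729 for Ccl7). These 2 libraries had the highest sums of macrophage, dendritic and Langerhans cell markers in their groups. The macrophage gene Csf1r was read at 13.4 CPM in MC903 replicate 2. In cKO untreated skin it was read at 1.95, 1.68 and 1.52 CPM, so untreated replicate 1 stood little above the others. MC903 replicate 2 was the highest of its group for Ccl8, as for the macrophage gene C1qa below. The part of macrophages in these 2 rises was not tested.

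Genes of mitochondrial respiration rose by small amounts. Of 34 tested genes of oxidative phosphorylation 17 rose and none fell, with a median log2 change of 0.48 and 6 stable calls. The count was 6 without untreated replicate 2 or 3, 9 without MC903 replicate 2, 10 without MC903 replicate 1, 11 without MC903 replicate 3 and 26 without untreated replicate 1. Atp5c1, a subunit of ATP synthase, was read at 425, 401 and 403 CPM in MC903 skin, against 304, 222 and 213 CPM in untreated skin (log2 change 0.73 ± 0.13, SE, adjusted p = 0.00258), and Ndufa4, a subunit bound to cytochrome c oxidase, at 264, 250.1 and 249 CPM in MC903 skin, against 187, 151 and 134 CPM in untreated skin (log2 change 0.69 ± 0.13, SE, adjusted p = 0.00386). Untreated replicate 1 was the highest of its group for both and lay below each MC903 library. Ndufa6 and Ndufa1, of complex I, had log2 changes of 0.83 ± 0.16 and 0.75 ± 0.15. Ribosomal proteins, taken as families after their values were seen, had 30 of 74 cytosolic members higher (2 stable) and 20 of 74 mitochondrial members higher (6 stable), with none lower. Of 27 genes of glycolysis and hypoxia 1 rose and 2 fell, and Ero1l, a disulfide-forming oxidase of the endoplasmic reticulum, was the stable fall (-0.72 ± 0.13). The called share of this list was 11.1%, close to the 11.3% of all tested genes.

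Feedback genes of cytokine signalling moved both ways. Of 18 SOCS, PIM and STAT5 genes 5 rose (2 without untreated replicate 3 and 3 without MC903 replicate 2 or 3 or untreated replicate 1 or 2) and 6 fell (2 without MC903 replicate 2). Cish, an inhibitor of STAT5 signalling that STAT5 itself induces, was read at 607, 606 and 593 CPM in MC903 skin, against 905, 918 and 899 CPM in untreated skin (log2 change -0.59 ± 0.10, SE, adjusted p = 0.00161). Stat5b stood at 288, 312 and 330.5 CPM in MC903 skin, against 202, 182 and 211 CPM in untreated skin (log2 change 0.65 ± 0.12, SE, adjusted p = 0.00313), Socs5, another suppressor of cytokine signalling, had a log2 change of 1.09 ± 0.18, and the survival gene Bcl2l1 had a log2 change of -0.66 ± 0.12. The replicates of Cish lay close together within each group, and neither Cish nor Stat5b overlapped between groups. Il21r, the receptor of interleukin 21, was the stable fall among 32 cytokine receptor genes (log2 change -1.04 ± 0.18, SE, adjusted p = 0.00228), of which 2 rose and 2 fell (0 rises and 1 fall without any 1 library other than untreated replicate 1). The called share of the receptor list was 12.5%, close to the 11.3% of all tested genes. Of 27 genes of the TGF-β pathway 7 fell and 1 rose, which was Lrrc32. The fall count was 1 without MC903 replicate 2 or untreated replicate 3, 2 without MC903 replicate 3 or untreated replicate 2 and 4 without MC903 replicate 1, and Tgfbr1, a signalling receptor of TGF-β, was the stable fall (log2 change -1.14 ± 0.19, SE, adjusted p = 0.00165).

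Fewer cell cycle and lipid uptake genes were called than the 11.3% of all tested genes. Of 35 cell cycle genes 1 rose, Hmgb2, which was not stable, and Mki67, the proliferation marker Ki67, was read at 50.5, 46.4 and 42.7 CPM in MC903 skin, against 74.1, 41.5 and 42.96 CPM in untreated skin (-0.18 ± 0.43, adjusted p = 0.837). Of 28 lipid uptake genes 1 fell. Of 27 genes of cholesterol and fatty acid synthesis 4 fell, none of them stable (0 without MC903 replicate 3, 1 without MC903 replicate 2 or untreated replicate 2 or 3 and 2 without untreated replicate 1). Among 16 genes of the S100 and alarmin list 3 fell, with Anxa2, a phospholipid-binding annexin, at 877, 537 and 684 CPM in MC903 skin, against 1348, 1225 and 1225 CPM in untreated skin (log2 change -0.86 ± 0.16, SE, adjusted p = 0.00409). Bid, a death agonist, rose (0.78 ± 0.17) in the BCL2 family, where 2 of 16 rose and 1 fell. Of 26 genes of chemokines and secreted cytokines 5 fell, of which Calca, Tnf and Cxcl10 were stable and Ccl5 and Vegfa were not, and 2 rose (the falls numbered 3 without MC903 replicate 1 or 2 or untreated replicate 2, and the rises 1 without MC903 replicate 2 or 3 or untreated replicate 2 or 3 and 4 without untreated replicate 1). Il16, a chemoattractant cytokine gene, was the stable rise (log2 change 0.76 ± 0.14, SE, adjusted p = 0.00346).

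MC903 acts on the vitamin D receptor, so genes of vitamin D response and metabolism were followed. Of 9 tested, none rose and 2 fell, Ccr10 and Rxra, and this count was 0 without MC903 replicate 2 or 3 or untreated replicate 2 or 3 and 1 without MC903 replicate 1. Vdr, the receptor itself, was read at 6.53, 9.55 and 6.44 CPM in MC903 skin, against 3.81, 9.35 and 6.05 CPM in untreated skin (0.23 ± 0.36, adjusted p = 0.742). Cyp24a1, the vitamin D-degrading enzyme that the receptor induces, was read at 0.1297, 1.26 and 3.62 CPM in MC903 skin, against 0, 0 and 0 CPM in untreated skin, and was not called (adjusted p = 0.119). All 3 MC903 libraries held Cyp24a1 counts and no untreated one did.

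Transcripts of other cells were present in the sorted samples and in part moved with the treatment. Mast cell and basophil markers summed to 53.2, 80.6 and 47.8 CPM in MC903 skin, against 29.6, 26.7 and 19.3 CPM in untreated skin, and the groups did not overlap. Of 10 tested 3 rose. Hdc, the histamine-forming enzyme, was read at 20.1, 31.7 and 27.9 CPM in MC903 skin, against 10.8, 7.89 and 7.62 CPM in untreated skin (adjusted p = 0.00118). The others were the mast cell protease gene Cpa3 and Cd200r3, a receptor gene of mast cells and basophils, each with untreated libraries at 0. Their means in MC903 skin were 50.4-fold and 7.48-fold a floor of 3 counts per untreated library. Cpa3 was read at 5.36, 11.7 and 1.76 CPM in MC903 skin, so its mean rests largely on replicate 2. The call of Cpa3 ended without untreated replicate 2 or 3 and in other settings (adjusted p up to 0.107), while Cd200r3 kept its call in every setting that tested it but did not reach the filter of 50 counts in 3 libraries. Mcpt4, a mast cell protease, stood at 6.397, 6.93 and 1.53 CPM in MC903 skin, against 0, 0.0431 and 0 CPM in untreated skin, and Mcpt8, a basophil protease, at 0, 1.697 and 1.001 CPM in MC903 skin, against 0, 0 and 0 CPM in untreated skin. Hdc, which counts in the sums of this list, was thus read in untreated libraries with Cpa3 and Mcpt8 at 0. Its cell source was not tested. Sums of 2 smaller lists did not overlap either. Erythroid and platelet markers summed to 4.75, 24.8 and 5.34 CPM in MC903 skin, against 2.88, 1.55 and 2.19 CPM in untreated skin, with 1 of 3 tested called higher, Pf4, a chemokine gene listed as a platelet marker, whose call ended without MC903 replicate 2 or untreated replicate 2 or 3. Pf4 itself was read at 2.98, 21.8 and 4.20 CPM in MC903 skin, against 0.381, 0.172 and 0.273 CPM in untreated skin. MC903 replicate 2 was the highest of its group for Pf4, as for the macrophage gene C1qa below. The erythroid gene Hba-a1 was at 0 in all 6 libraries, and the cell source of Pf4 was not tested. Melanocyte, Schwann and muscle markers summed to 76.9, 66.1 and 77.8 CPM in MC903 skin, against 124, 128 and 89.8 CPM in untreated skin, with 1 of 13 tested called lower, Mbp, a myelin gene, which was not stable. The part of these cells in the results was not tested.

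Macrophage, dendritic and Langerhans cell markers summed to 1011, 1149 and 832 CPM in MC903 skin, against 2069.9, 1217 and 871 CPM in untreated skin. The groups overlapped, and untreated replicate 1 and MC903 replicate 2 were the highest of their groups. Of 20 tested 3 rose, Cd68, C1qa and Mrc1, a count that was 0 without MC903 replicate 2 or 3 or untreated replicate 3, and 1 without untreated replicate 1 or 2. The median log2 change of the 20 was 1.19 in the cKO, against -0.90 in WT. For 10 of the 20 every cKO MC903 library lay above every cKO untreated one, and for 0 below. Over all tested genes these shares were 17.4% and 16%. C1qa, a complement gene of macrophages, stood at 1.99, 23.6 and 5.48 CPM in MC903 skin, against 0.296, 0.216 and 0 CPM in untreated skin. Without MC903 replicate 2 and untreated replicate 1 together, a setting chosen after seeing the data, 657 genes were higher and 413 lower. In that setting the counts of immediate early, clock, chaperone, follicular and oxidative phosphorylation genes stayed within 1.5 times of those given above, while lower calls of the TGF-β list numbered 1, of the type 1 list 2 and of the TNF family list 5, and higher calls of the identity list numbered 3.

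Keratinocyte markers summed to 63.5, 70.5 and 262 CPM in MC903 skin, against 423, 460.3 and 244 CPM in untreated skin, overlapping between groups, and of 18 tested 1 rose (Lgals7, not stable) and 1 fell (Sfn). Fibroblast markers summed to 236, 189.8 and 536 CPM in MC903 skin, against 316, 143 and 102 CPM in untreated skin, and of 16 tested none was called. Krt14, a keratin of basal keratinocytes, was read at 0.648, 1.99 and 73.9 CPM in MC903 skin, against 109, 107 and 20.04 CPM in untreated skin, and Col1a1, the main fibroblast collagen gene, at 9.55, 10.6 and 20.9 CPM in MC903 skin, against 13.9, 12.03 and 2.695 CPM in untreated skin. MC903 replicate 3 was the highest of its group for both, as for both sums. Pecam1, an endothelial marker, rose (log2 change 1.06 ± 0.20, SE, adjusted p = 0.00414). It was read at 133, 155 and 107 CPM in LN Tregs, and Cdh5, another endothelial marker, was at 2.72 CPM or less in all 6 libraries. Endothelial and mural markers summed to 96.1, 100 and 235 CPM in MC903 skin, against 97.7, 93.9 and 47.5 CPM in untreated skin, overlapping between groups. Of 15 tested 1 was called, and their median log2 change was 0.86. The cell source of the Pecam1 rise was not tested. CD8, gamma-delta T, natural killer and innate lymphoid markers summed to 37.6, 52.2 and 67.8 CPM in MC903 skin, against 47.1, 37.4 and 33.8 CPM in untreated skin. Of 10 tested 1 was called higher, not stable. Neutrophil and eosinophil markers summed to 172, 124 and 176 CPM, against 192, 183 and 173 CPM, with 1 of 8 called lower. Both sums overlapped. The neutrophil gene S100a8 stood at 0.648, 2.62 and 2.67 CPM, against 0, 0 and 0.195 CPM. The part of these cells in the results was not tested.

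**Figure D4:**
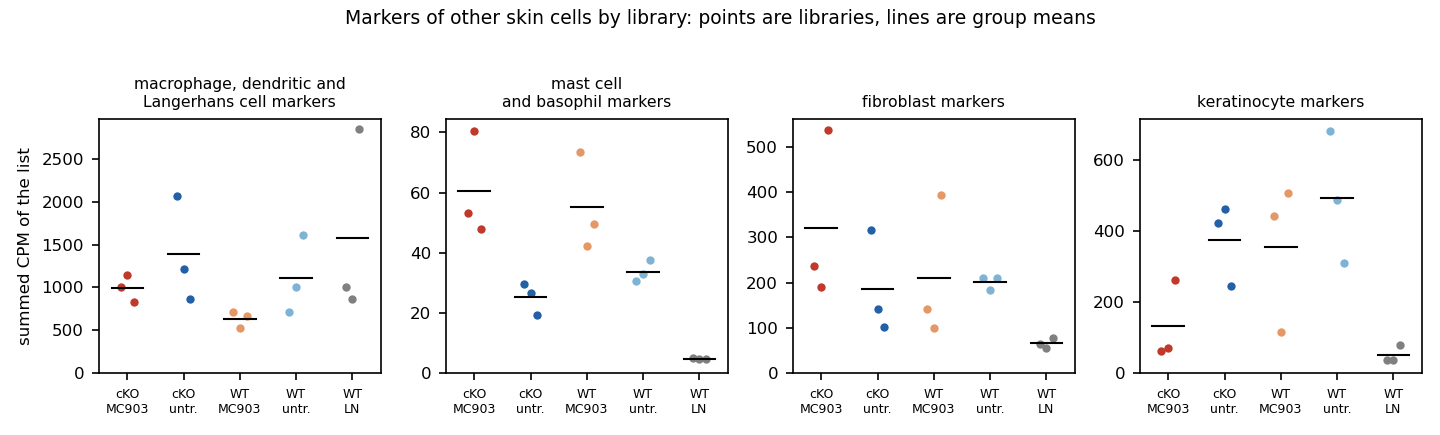
Summed CPM (linear axes from 0) of the marker lists of 4 kinds of other cells in all 15 libraries, 1 point per library and a line at each group's mean, with cKO MC903 left of cKO untreated. Mast cell and basophil markers lie higher in all 3 cKO MC903 libraries than in the untreated ones, and the other 3 sums drawn overlap between these groups.

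The same comparison in WT Tregs shows how far the response is shared. In WT Tregs 683 genes were higher in MC903 skin (5.03%) and 738 lower (5.44%). Of the 1529 genes called in the cKO, 1494 had the same sign in WT and 35 the opposite one. Over all 13578 tested genes the log2 changes of the 2 genotypes correlated less closely, at a Pearson r of 0.40 and a Spearman rho of 0.52. The share of equal signs over all tested genes was not counted. Both genotypes called 345 genes higher and 411 lower, together 49.4% of the cKO calls and 53.2% of the WT calls. Genes higher in the cKO had a median log2 change of 0.80 in the cKO and 0.56 in WT, and genes lower in the cKO had -0.89 and -0.75, but the cKO values are those that chose the genes. Immediate early genes gave 18 lower and none higher of 25 in WT, clock genes 8 lower, and all 8 GIMAP genes rose. Oxidative phosphorylation gave 3 rises of 34 in WT and cytosolic ribosomal proteins 1 of 74, against 17 and 30 in the cKO, but a difference in counts of calls is no test of a difference between genotypes.

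That difference was tested as the interaction of genotype and MC903. By edgeR's quasi-likelihood test no gene was called, the smallest adjusted p was 0.643, and 765 genes (5.63%) had an unadjusted p under 0.05. The median standard error of the interaction was 0.38 on the log2 scale, so a difference of that size is within the error of a single gene. DESeq2 called 17 genes and limma-voom none. Lrrc32 was read at 100.4, 102 and 136 CPM in WT MC903 skin, against 70.02, 38.2 and 102 CPM in WT untreated skin (log2 change 0.69 ± 0.32, adjusted p = 0.197), and its log2 change in the cKO exceeded that in WT by 1.44 ± 0.46 (adjusted p = 0.866). Myo6 stood at 27.2, 18.4 and 15.2 CPM in WT MC903 skin, against 3.03, 5.79 and 3.93 CPM in WT untreated skin (2.25 ± 0.26, adjusted p = 0.0001), with an interaction of 1.56 ± 0.36 (adjusted p = 0.643). Gpr15 was read at 57.8, 57.7 and 41.4 CPM in WT MC903 skin, against 5.34, 4.598 and 3.28 CPM in WT untreated skin (3.56 ± 0.29, adjusted p = 1.09e-05), with an interaction of -1.47 ± 0.37 (adjusted p = 0.668). None of these interactions passed the test.

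A single gene, Cd300lb, was called in opposite directions in the genotypes. It encodes an activating receptor of myeloid cells and was called higher in cKO MC903 skin (adjusted p = 0.0429, not among the stable calls). The untreated cKO libraries were at 0, and the cKO MC903 mean was 6.52-fold a floor of 3 counts per untreated library. The WT libraries gave 0, 0 and 0 CPM in WT MC903 skin, against 0.473, 0 and 1.67 CPM in WT untreated skin (adjusted p = 0.046), so that 1 WT untreated library was at 0 like all of WT MC903 skin. Its interaction was not called by edgeR (adjusted p = 0.643) but was by DESeq2 (0.00886). Il10 was read at 210.3, 222 and 173 CPM in WT MC903 skin, against 556, 556 and 545 CPM in WT untreated skin (-1.45 ± 0.16, adjusted p = 6.12e-05), with an interaction of 0.65 ± 0.22 (adjusted p = 0.866), and Cxcr6 had a WT change of -2.22 ± 0.22 with an interaction of 0.98 ± 0.29 (adjusted p = 0.866). Both genes fell in both genotypes. Without WT untreated replicate 1 the interaction called Slc39a10, a zinc importer gene (-2.03, adjusted p = 0.0324), and without WT untreated replicate 2 it called Tbc1d4, a regulator of glucose transporter traffic (3.39, adjusted p = 0.0221). Tbc1d4 was also among the 17 genes that DESeq2 called with all libraries (2.97, adjusted p = 0.00117). It stood at 12.3, 10.7 and 9.25 CPM in MC903 skin, against 0.805, 1.42 and 1.02 CPM in untreated skin of cKO mice and at 7.51, 8.99 and 7.54 CPM in WT MC903 skin, against 12.1, 2.03 and 4.85 CPM in WT untreated skin.

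**Figure D5:**
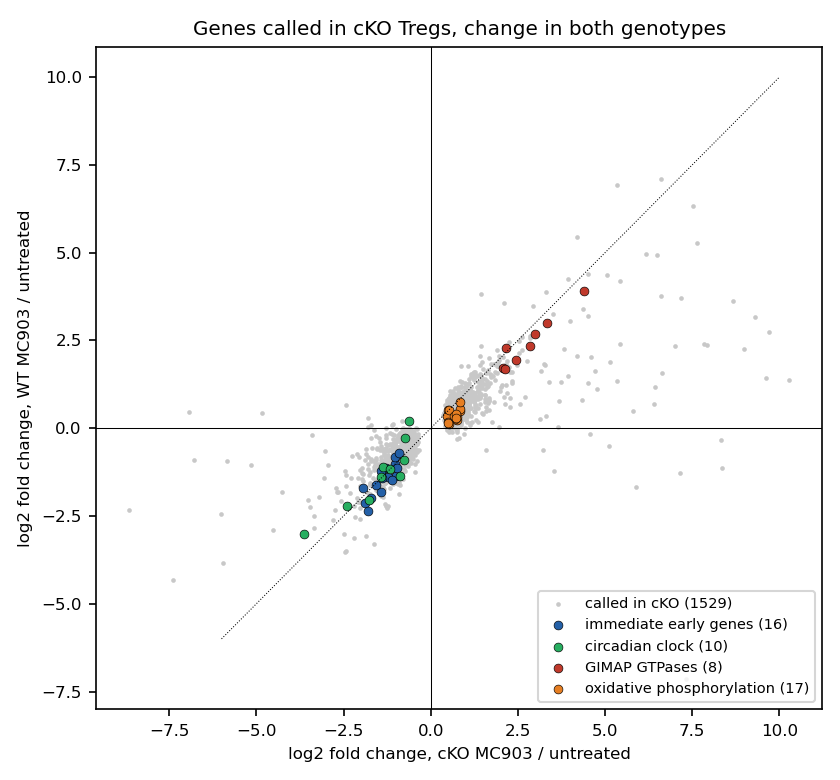
Log2 change in MC903 against untreated skin in cKO Tregs (x axis) and in WT Tregs (y axis) for the 1529 genes called in the cKO, 1 point per gene, with called members of 4 groups coloured and a dotted line of equal change. Of these genes 1494 lie on the same side of 0 in both genotypes.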

How the data were processed

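Tregs sorted from skin were lysed for RNA with a PicoPure kit, made into libraries with the SMART-Seq v4 Ultra Low Input kit and sequenced from 1 end, over 75 bp, on a NextSeq 500, per the labels' protocols. TopHat2 2.0.6, DESeq2 (no version) and the build mm9 are named in the submitters' processing notes. The authors deposited raw counts per gene, whole numbers for 24015 genes in 15 libraries. How reads were assigned to genes and strands is not given in the sources used here, so overlapping or near-identical genes are uncertain. The authors' own comparison of LN and skin was not used.

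The analysis used edgeR 4.0.16 under R 4.3.3: filterByExpr over the 5 groups left 13578 genes, TMM factors ran from 0.903 to 1.26, and a robust quasi-likelihood model of all 15 libraries was tested per contrast, with Benjamini-Hochberg adjustment. Calls were made below an adjusted p of 0.05. The biological coefficient of variation was 37.2%. The pipeline was tested on simulated data. Members, the 44 gene lists (989 entries, 892 tested) and the comparison with LN were chosen with earlier results of these data known. The text names the 12 called genes per direction with the largest change, given a mean log2 CPM of at least 3 and groups apart, up to 4 called members per list with the smallest adjusted p, and genes followed throughout. These are 140 genes, of which 125 were called and 81 were stable, and the stable ones are described mainly. Some genes that the rule names are not reported here. Other genes and families are said to be chosen after their values were seen. Errors after ± are standard errors of the model and include the spread between libraries. Floors of 3 counts cover counting error only, since reads from PCR carry no molecular identifiers. Promoters came from RefSeq, GRCm38.p6, with 10216 tested genes matched by symbol. Alternatives were DESeq2 1.42.0, limma-voom (limma 3.58.1), relative log expression factors, other filters, fewer libraries in the fit, a replicate block and each library left out.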

Additional observations from a re-analysis of the deposited data

How the results depend on the processing

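In the cKO comparison, 809 genes were higher and 720 lower. DESeq2 gave 1097 and 1060, limma-voom with sample weights 1364 and 1278, relative log expression factors 777 and 748, no filter beyond 1 count 693 and 651, a filter of 50 counts in 3 libraries 867 and 782, and only the compared groups in the fit 789 and 834. With the replicate number as a block there were 720 and 605 calls, and in WT 613 and 619. Deviations of same-numbered cKO MC903 and cKO untreated libraries from their group means correlated at -0.11, 0.02 and -0.28. Between cKO MC903 and WT MC903 libraries, same-numbered ones correlated at 0.05, 0.03 and 0.22, and others at -0.15 to 0.10. Deviations from a mean of 3 libraries depend on each other, so these values cannot decide whether same-numbered libraries were paired. Leaving out each cKO library gave 343 to 1054 higher and 276 to 841 lower genes. Added after seeing the data, the fit without MC903 replicate 2 and untreated replicate 1 gave 657 and 413, and that of the 12 skin libraries alone 686 and 653. In WT, 683 higher and 738 lower genes became 218 and 323 with only the compared groups in the fit, and 378 to 711 and 389 to 699 with each WT library left out. The interaction had 0 calls, 17 by DESeq2 and 0 to 1 with each library left out. The cause of these differences was not tested. No named gene changed direction while called. Over all named genes and alternatives, the side of the threshold was kept in 1844 cases, a call was lost in 241 and gained in 11, and counts of list members stayed within 1.5 times in 1027 and moved further in 293. No scaling moved the median of all genes by over 0.1 on the log2 scale. With 3 libraries a group and counts per library below 30 M, single genes of low count are limited by the spread between libraries.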
